A study of Mus musculus with 6 samples.

Results

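The 9 genes described here encode parts of the NLRP3 inflammasome, its effectors, and cytokines and an antagonist of the interleukin-1 (IL-1) family: Nlrp3, Pycard, Casp1, Casp4, Gsdmd, Il1b, Il1a, Il18 and Il1rn. They were chosen by symbol, because Nlrp3 and Il1b are reported targets of REV-ERB in myeloid cells, and all 9 were found among the 24537 genes of the table. All 9 also passed the filter on low values and were among the 13211 genes tested. RNA was sequenced from colon regulatory T cells (Tregs) of mice with TNBS colitis. The mice were sensitised through the skin with 150 µl of 1% TNBS, a hapten, and received 100 µl of 2.5% TNBS rectally after 7 days. There were 3 libraries labelled REV-ERB KO (KO 1 to 3) and 3 labelled REV-ERB WT (WT 1 to 3), all from mice given TNBS. The labels name neither strain, age or sort gates, nor the allele or promoter behind the knockout, nor whether each library comes from its own animal.

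An inflammasome is built in steps. A first signal through NF-κB raises the transcripts of the sensor NLRP3 and of pro-IL-1β. A second signal makes NLRP3 gather the adaptor ASC, the product of Pycard, which activates caspase-1. Caspase-1 cleaves pro-IL-1β and pro-IL-18 into active cytokines and cleaves gasdermin D, whose fragment opens pores in the cell membrane. Caspase-11, the product of mouse Casp4, senses bacterial lipopolysaccharide in the cytosol and also cleaves gasdermin D. IL-1α acts on the same receptor as IL-1β without needing caspase-1, and the product of Il1rn blocks that receptor. In the gut, Il1b and Nlrp3 are known mainly from monocytes, macrophages and neutrophils, and Il18 is made by epithelial cells as well as by myeloid cells. REV-ERBα and REV-ERBβ repress transcription, and they bind the letters AGGTCA, preferably after an A- and T-rich stretch.

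In short, none of the 9 transcripts passed the test over all genes. The lowest KO library for Il1a and for Il18 lay above the highest WT library, as it did for 10.6% of all genes tested. The group means differed by 2.42-fold and 2.06-fold in mean TPM (a level scaled to transcript length and sequencing depth). Without KO 2, the highest library for both, the folds were 2.10 and 1.65. Il1b, Nlrp3 and Il1rn stood apart in 1 library only, KO 2, and overlapped between the groups. Gsdmd did not overlap between the groups either, but it was nearly level across all 6 libraries.

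The genes lie on 5 chromosomes (coordinates in mm10). Il1a (NM_010554, chromosome 2, 129299610 to 129309972) and Il1b (NM_008361, chromosome 2, 129364578 to 129371139) are neighbours on the minus strand with 54605 bases between them, each with 7 exons. Il1rn (NM_001039701, 4 exons) is far from them on chromosome 2, 24345371 to 24351491, plus strand. Casp1 (NM_009807, 10 exons, chromosome 9, 5298517 to 5307281) and Casp4 (NM_007609, 9 exons, chromosome 9, 5308849 to 5336791) follow each other on the plus strand, 1567 bases apart. Il18 (NM_008360, 6 exons) is also on chromosome 9, at 50565368 to 50581837, plus strand. Nlrp3 (NM_145827, 10 exons) lies on chromosome 11, 59542686 to 59566956, plus strand. Pycard (NM_023258, 3 exons) lies on chromosome 7, 127991373 to 127993867, minus strand, and Gsdmd (NM_026960, 11 exons) on chromosome 15, 75862339 to 75867404, plus strand. Each row stands for 1 transcript and covers its exons and UTRs. Genes on the opposite strand overlap 3 members: Il1bos overlaps Il1b, Gm14023 overlaps Il1a, and Gm45205 overlaps Pycard. The sources do not state the strand setting of the counting, and these 3 values may therefore hold reads of the partner. The rows of Il1bos and Gm14023 held at most 6 reads in any library.

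The 250 bases before the start site are shown for the reported targets Il1b and Nlrp3 and for Il1a and Il18, which had the largest differences of the 9 and groups that did not overlap. They are RefSeq sequence of build GRCm38.p6, 5′ to 3′ on the gene's strand, and none overlaps an exon of its own gene in GENCODE M21. Capitals mark a match to the AP-1 motif TGANTCA. For Il18 the window belongs to a start site 10668 bases upstream of the deposited row.
Il1b, chr2:129371140-129371389, minus strand: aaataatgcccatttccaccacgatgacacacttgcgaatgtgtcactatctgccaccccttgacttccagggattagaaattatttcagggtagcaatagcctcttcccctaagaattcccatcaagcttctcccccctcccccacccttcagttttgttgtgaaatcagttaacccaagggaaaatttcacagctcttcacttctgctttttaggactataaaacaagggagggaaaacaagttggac
Nlrp3, chr11:59542436-59542685, plus strand: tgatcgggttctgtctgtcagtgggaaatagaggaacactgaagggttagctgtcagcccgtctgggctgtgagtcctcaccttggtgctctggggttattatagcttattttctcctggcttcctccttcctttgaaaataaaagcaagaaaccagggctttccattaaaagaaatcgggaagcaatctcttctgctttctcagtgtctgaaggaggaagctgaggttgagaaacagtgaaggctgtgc
Il1a, chr2:129309973-129310222, minus strand: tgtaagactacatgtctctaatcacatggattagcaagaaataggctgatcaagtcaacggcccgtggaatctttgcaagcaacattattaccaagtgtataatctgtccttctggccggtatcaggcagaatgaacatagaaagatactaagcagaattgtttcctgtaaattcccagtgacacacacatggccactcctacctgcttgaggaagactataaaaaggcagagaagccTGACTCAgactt
Il18, chr9:50554450-50554699, plus strand: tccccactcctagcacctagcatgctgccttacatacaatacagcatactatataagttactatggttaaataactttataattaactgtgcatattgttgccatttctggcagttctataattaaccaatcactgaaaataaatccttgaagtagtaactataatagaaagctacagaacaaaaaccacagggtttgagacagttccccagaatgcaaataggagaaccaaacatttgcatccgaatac
RefSeq windows were found for 8 of the 9 members, 12 windows in all, and both strands were searched. The letters AGGTCA occurred in 1 of the 12, a window of Il1rn, and in 14.0% of all 32851 windows. TGANTCA occurred in a window of Il1a, 12 to 6 bases before its start, and in a window of Il1rn, against 6.7% of all windows. The NF-κB motif GGGNNNNNCC occurred in windows of Casp1, Casp4, Il1rn and Nlrp3 (for Nlrp3, in its other window), against 45.8% of all. None of these 3 motifs overlapped another in the 4 windows shown. A match is only a run of letters, and a window without one says nothing about more distant sites.

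On the TPM scale Il1b was the most abundant of the 9 in the mean over all libraries, at 227.8 TPM, and its lowest library lay above the highest library of Gsdmd, the next. Gsdmd (70.2 TPM), Casp4 (67.1 TPM), Il1rn (53.2 TPM), Casp1 (50.9 TPM) and Pycard (42.8 TPM) followed, and each of these overlapped its neighbour in range. Il18 (13.6 TPM), Nlrp3 (7.38 TPM) and Il1a (3.57 TPM) were lowest. Their ranges overlapped too, although Il18 was above Nlrp3 and Nlrp3 above Il1a in 6 of 6 libraries.

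The libraries held 9794480 to 15890630 reads recovered from the TPM values, and each labelled KO was deeper than each labelled WT. Nr1d1, which encodes REV-ERBα, was not lower in the libraries labelled KO (155.0 ± 13.9 TPM, against 86.2 ± 18.9 TPM, SD, n = 3 each). Nr1d2, which encodes REV-ERBβ, was not lower either (68.8 ± 18.2 TPM, against 61.0 ± 10.0 TPM), and its groups overlapped. Directions therefore follow the labels as given. The Treg markers Foxp3, Il2ra, Ctla4, Cd3e and Cd4 were present in every library, with Foxp3 at 171.4 to 235.0 TPM in those labelled KO and 451.4 to 663.7 TPM in those labelled WT. Transcripts of other cells were present as well. All 14 macrophage and monocyte markers were above 0, with Lyz2 at 248.6 to 444.1 TPM, and so were all 13 epithelial markers. Of the 9 neutrophil markers, Ngp and Camp had no reads in any library. In such bulk samples a lower share of a cell type and less RNA per cell cannot be told apart.

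The product of Il1b, IL-1β, is the main secreted product of the inflammasome. Il1b was measured at 203.6, 399.8 and 186.8 TPM in KO 1, 2 and 3 and at 221.4, 169.8 and 185.4 TPM in WT 1, 2 and 3. KO 2 was high, and the other 2 libraries labelled KO lay within the range of those labelled WT. Il1b differed by 0.37 in log2(TPM + 1) between groups (SE 0.272, 95% confidence interval -0.26 to 1.00, limma adjusted p = 0.538, exact permutation p = 0.4). Without KO 2 it was 0.03, with an interval of -0.30 to 0.36, and without KO 3 it was 0.58.

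Il1rn encodes the IL-1 receptor antagonist. It was also high in KO 2, at 51.2, 95.9 and 44.9 TPM in KO 1 to 3 and 50.3, 35.6 and 41.4 TPM in WT 1 to 3. Il1rn differed by 0.51 in log2(TPM + 1) (SE 0.274, limma adjusted p = 0.40) and 0.19 without KO 2.

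Nlrp3, the sensor, was measured at 5.40, 14.5 and 6.48 TPM in KO 1 to 3 and at 6.14, 4.19 and 7.59 TPM in WT 1 to 3. Only KO 2 lay above the libraries labelled WT, and KO 1 lay below WT 1 and WT 3. The values rest on 130 to 540 reads per library. Nlrp3 differed by 0.41 in log2(TPM + 1) (SE 0.357, interval -0.42 to 1.23, limma adjusted p = 0.608, exact permutation p = 0.5), and 0.02 (interval -0.63 to 0.67) without KO 2. It was 0.66 without KO 1 and 0.21 without WT 2. The mean of KO 1 and KO 3 was 0.994 times the mean of the libraries labelled WT.

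Il1a encodes IL-1α, a cytokine that dying cells also release as an alarm signal. It was measured at 4.03, 6.41 and 4.73 TPM in KO 1 to 3 and at 1.87, 2.90 and 1.49 TPM in WT 1 to 3. The groups did not overlap, and the lowest library labelled KO was above the highest labelled WT. These levels rest on 67, 117 and 98 reads and on 24, 44 and 22 reads. Il1a differed by 0.98 in log2(TPM + 1) (SE 0.262, interval 0.37 to 1.59) and did not pass over all genes (limma adjusted p = 0.191). Without KO 2 it was 0.82.

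Il18 encodes the pro-form of IL-18, which drives interferon-γ in T cells and guards the epithelial barrier. It was measured at 11.7, 25.6 and 17.7 TPM in KO 1 to 3 and at 7.49, 8.74 and 10.4 TPM in WT 1 to 3, on 42 to 204 reads per library. Again KO 2 was highest, and all 3 libraries labelled KO were above all labelled WT, KO 1 by a small margin. Il18 differed by 0.91 in log2(TPM + 1) (SE 0.271, interval 0.29 to 1.54, limma adjusted p = 0.211), and 0.65 without KO 2. The exact permutation p was 0.1 for Il1a and for Il18, the smallest that 3 against 3 libraries can give.

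Pycard encodes the adaptor ASC. It was measured at 37.9, 56.0 and 51.1 TPM in KO 1 to 3 and at 43.9, 32.2 and 35.9 TPM in WT 1 to 3, and KO 1 lay below WT 1. Pycard differed by 0.36 in log2(TPM + 1) (SE 0.176, limma adjusted p = 0.372). Casp1, the protease of the complex, was measured at 62.5, 66.7 and 46.8 TPM in KO 1 to 3 and at 58.5, 32.1 and 38.9 TPM in WT 1 to 3. WT 1 lay within the range of the libraries labelled KO, and the difference was 0.46 (SE 0.228, limma adjusted p = 0.373), with 0.70 without WT 1 and 0.28 without WT 2. Casp4 was measured at 90.4, 77.8 and 54.1 TPM in KO 1 to 3 and at 91.4, 41.4 and 47.7 TPM in WT 1 to 3. Its highest library was WT 1, and the difference was 0.35 (SE 0.305, limma adjusted p = 0.603). This value moved with single libraries, to 0.69 without WT 1, 0.56 without KO 3, 0.23 without WT 3, 0.20 without KO 1 and 0.13 without WT 2.

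Gsdmd, the pore former, was measured at 71.1, 72.3 and 72.6 TPM in KO 1 to 3 and at 70.9, 68.5 and 66.0 TPM in WT 1 to 3. The groups did not overlap, but the libraries lay within a few TPM of each other, and the groups differed by 0.07 in log2(TPM + 1) (SE 0.0882, limma adjusted p = 0.718). Without WT 3 it was 0.05. The interval of -0.13 to 0.28 leaves out changes of the size seen for Il1a. Its SD over all 6 libraries was 0.051 on the log2 scale, against 0.302 for Pycard and 0.619 for Il18.

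**Figure D1:**
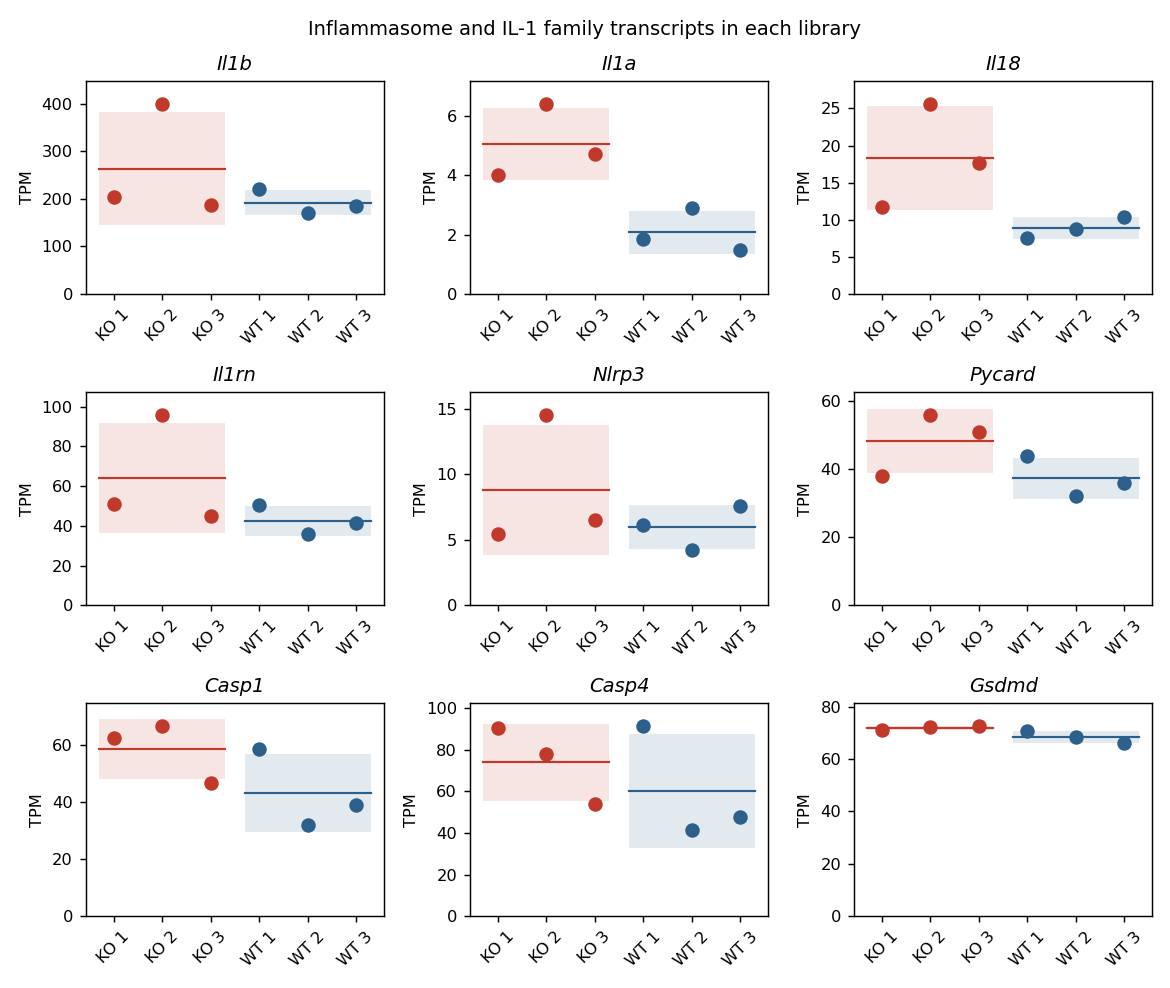
Level in TPM (vertical axis, from 0) of each of the 9 transcripts in the 3 libraries labelled KO (red) and the 3 labelled WT (blue); lines are group means and shaded bands are ± 1 SD (n = 3). Il1a, Il18 and Gsdmd do not overlap between groups, and Gsdmd is nearly level. Il1b, Il1rn and Nlrp3 are high in KO 2 only.

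Over all genes tested, 0 of 13211 passed the adjusted threshold of 0.05 in limma (0%), and 0 of the 9 members did. At an unadjusted p below 0.05, 2 members were higher in the libraries labelled KO (Il1a and Il18) and 0 were lower. Over all genes, 7.80% were higher and 7.86% lower by the same rule. The groups did not overlap for 3 members (Il1a, Il18 and Gsdmd), all higher in the libraries labelled KO, against 10.6% of all genes in that direction. All 9 differences were above 0, as were 49.5% of all genes, with a median of 0.41 for the members and -0.003 for all genes. The 9 genes share the same 6 libraries, so these counts are not 9 separate observations.

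KO 2 was the highest library for 7 of the 9 members, all but Casp4 and Gsdmd, and for 20.5% of all genes tested. The same library was highest for 12 of the 14 macrophage and monocyte markers and for 12 of the 13 epithelial markers. Summed over the list, the macrophage and monocyte markers came to 1752.8 TPM in KO 2. They came to 1062.6 and 950.7 TPM in KO 1 and KO 3, and to 947.5, 936.1 and 1453.0 TPM in WT 1 to 3. WT 3 was thus second in these markers, and it was second highest in Nlrp3 and second lowest in Il1b. The part of these markers in the differences was not tested beyond the covariate fits given next. The summed epithelial markers were 2478.5 to 4567.9 TPM in the libraries labelled KO and 1293.8 to 2125.8 TPM in those labelled WT, without overlap. The summed neutrophil markers, at low levels, were 14.1 to 42.8 TPM and 4.35 to 11.7 TPM, also without overlap. Dendritic cell markers (52.0 to 85.8 TPM against 54.7 to 66.6 TPM) and B cell markers (45.9 to 74.6 TPM against 42.0 to 67.7 TPM) overlapped. The 7 Treg markers summed to 3807.0 to 4369.5 TPM in the libraries labelled KO and 4985.6 to 5411.8 TPM in those labelled WT, without overlap and in the opposite direction to the members. Ctla4 made the largest part of this sum (mean 2090.6 against 2743.1 TPM). Of the 7 markers, 6 lay below 0 and 1, Tnfrsf18, above (792.3 against 667.5 TPM). The groups did not overlap for 3 of them, Foxp3, Ctla4 and Cd4. The part of the Treg and neutrophil markers in the differences of Il1a and Il18 was not tested.

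**Figure D2:**
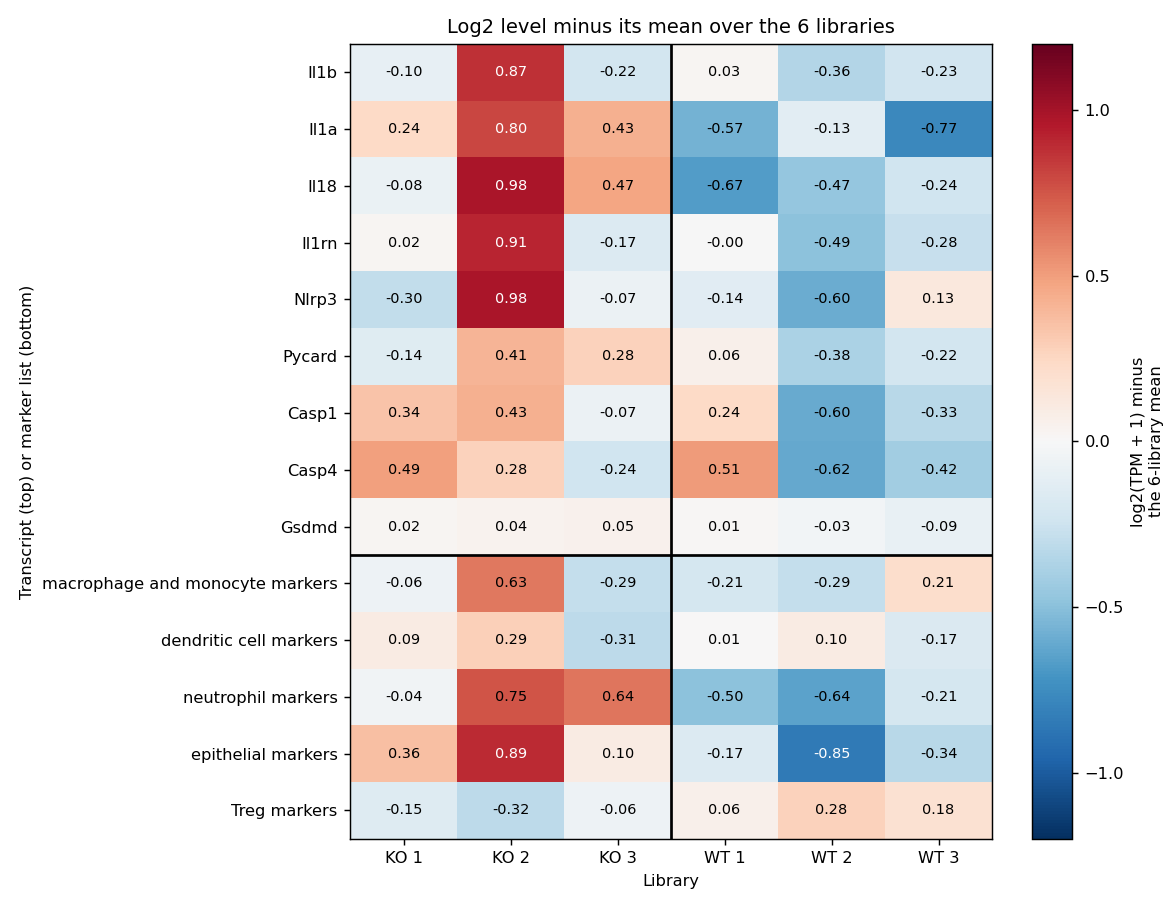
Log2(TPM + 1) of each of the 9 transcripts (top) and mean log2(TPM + 1) of each marker list (bottom), minus the mean over the 6 libraries, in each library (columns); red is above and blue below that mean. KO 2 is at 0.87 for Il1b, 0.63 for the macrophage and monocyte markers and 0.89 for the epithelial markers.

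With the macrophage and monocyte score as a covariate (the mean log2 level of the list), the difference of Il1a was 0.95 (interval 0.27 to 1.63) and that of Il18 0.77 (0.22 to 1.32). In the same fit Nlrp3 was at 0.16 (-0.39 to 0.71) and Il1b at 0.19 (-0.25 to 0.64). With the epithelial score as a covariate, Il1a was at 1.01 (-0.12 to 2.14) and Il18 at 0.53 (-0.58 to 1.65). In that fit 6 members turned below 0: Nlrp3 to -0.68, Il1b to -0.55, Il1rn to -0.45, Casp4 to -0.44, Casp1 to -0.25 and Pycard to -0.01. The epithelial score was 6.92 to 7.71 in the libraries labelled KO and 5.97 to 6.66 in those labelled WT, so the covariate and the genotype label split the 6 libraries the same way. The SE grew for Il1a (0.475), Il18 (0.469) and Casp4 (0.439), hardly differed for Il1b (0.277) and was smaller for Il1rn (0.245).

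**Figure D3:**
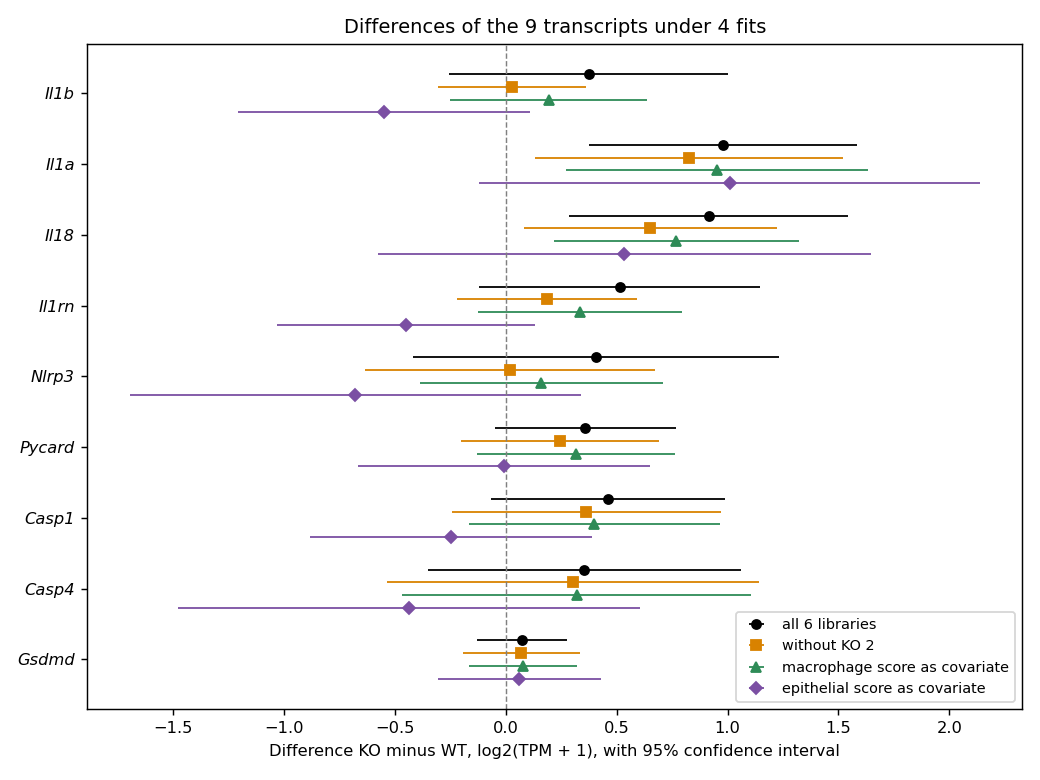
Difference between libraries labelled KO and WT on the log2(TPM + 1) scale (horizontal axis) for each of the 9 transcripts, with 95% confidence intervals, from 4 limma fits. Il1a and Il18 stay above 0 in the fit without KO 2 and with the macrophage score, while Il1b and Nlrp3 go to 0.03 and 0.02 without KO 2. With the epithelial score the intervals of Il1a (-0.12 to 2.14) and Il18 (-0.58 to 1.65) span 0. No member passed the adjusted threshold in any of these fits.

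A steady ratio of TPM within a library can mean that both members varied together or that both varied little. Of the 36 pairs, the ratio of Il1b to its antagonist Il1rn varied least, with an SD of 0.093 on the log2 scale over the 6 libraries. It was 3.97, 4.17 and 4.17 in KO 1 to 3 and 4.40, 4.76 and 4.48 in WT 1 to 3. The ratio was thus a little lower in each library labelled KO, although either gene alone overlapped. The ratio of the neighbours Casp4 to Casp1 was next (SD 0.176), at 1.16 to 1.56. Il1b to Nlrp3 ran from 24.4 to 40.5 (SD 0.291). The neighbours Il1b and Il1a, in contrast, ranked 31 of 36 (SD 0.671). Il1a rests on 22 to 117 reads per library, and the part of such low counts in this spread was not tested. Il1b exceeded Il1a 39.5 to 62.3 times in the libraries labelled KO and 58.7 to 124.2 times in those labelled WT. Il1b exceeded Il18 15.6, 17.4 and 10.6 times in KO 2, 1 and 3, and 17.8 to 29.6 times in those labelled WT, without overlap. Il18 alone did not overlap either, and the ratios of Pycard and of Gsdmd to Il18 were also lower in every library labelled KO. So were the ratios of Pycard and of Gsdmd to Il1a, and Il1a alone did not overlap. In all other pairs of members the groups overlapped. These ratios were looked at after the levels were known and carry no test. The share of ratios without overlap among pairs of other genes was not worked out.

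Against the macrophage and monocyte score, Nlrp3 varied less (SD 0.258 on the log2 scale) than alone (0.538). So did Il1b (0.250 and 0.448), Il1rn (0.289 and 0.486) and Il18 (0.477 and 0.619). KO 2 was the highest library in this score and in each of these genes, and its part in these values was not tested. The change was small for Il1a (0.590 and 0.603) and for Casp1 (0.409 and 0.409). For Casp4 (0.536 and 0.488), Pycard (0.358 and 0.302) and Gsdmd (0.365 and 0.051) the SD was larger against the score. Against the epithelial score the SD was 0.387 for Nlrp3, 0.347 for Il1b, 0.448 for Il1a, 0.388 for Il18, 0.263 for Il1rn and 0.452 for Casp4, each below the SD of the gene alone. For Pycard (0.404) and Gsdmd (0.566) it was above. Likeness was taken among the 10300 genes with a mean of at least 5 TPM, other than the member itself. The genes most like Nlrp3 over the 6 libraries were Aadac, Mertk and Ctsd (Pearson r 0.990, 0.983 and 0.980). Mertk is also on the list of macrophage and monocyte markers. Those most like Il1b included Btnl1 and Il1rn (r 0.995 and 0.985), and for Il18 they were Esrra, Dlat and Emc8-1190005i06rik (r 0.988, 0.988 and 0.982). With 6 points and the high KO 2 among them, 102 to 137 genes reached an r over 0.9 for each of the 3. These values are descriptions.

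The other genes of the pathway came from 7 lists with 108 genes in the table, of which 94 were tested. None passed the adjusted threshold in limma. At an unadjusted p below 0.05, 7 were higher and 10 lower in the libraries labelled KO, beside 7.80% and 7.86% of all genes. The median of the 94 was 0.05, beside -0.003 over all genes.

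Among the inflammasome sensors, 17 were tested, with a median of 0.11, 11 above 0 and 6 below. At an unadjusted p below 0.05, 1 was higher and 3 were lower. The 3 with the lowest p were the DNA sensor relative Mndal (103.4 ± 16.4 against 169.4 ± 15.9 TPM, -0.71 on the log2 scale), Nlrc5, the regulator of MHC class I genes (58.0 ± 9.76 against 79.6 ± 3.66 TPM, -0.46), and Aim2, the sensor of cytosolic DNA (38.2 ± 2.77 against 46.5 ± 2.07 TPM, -0.28). In all 3 the groups did not overlap, and the limma adjusted p was 0.130, 0.196 and 0.276. Mndal was thus on the opposite side of 0 from Il1a, while the interval of Nlrp3 spanned 0 (-0.42 to 1.23). For 3 other sensors, Naip1, Naip2 and Naip5, the groups did not overlap either, and these were higher in the libraries labelled KO. Over all genes, 10.6% lay higher and 10.4% lower without overlap.

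Among 25 tested genes of NLRP3 priming and licensing, the median was -0.002, with 11 above 0 and 14 below. Gbp5, a guanylate-binding protein reported to promote NLRP3 assembly, was lower in the libraries labelled KO (53.2 ± 6.60 against 78.7 ± 9.74 TPM, -0.56, limma adjusted p = 0.161). Trim31, a ubiquitin ligase reported to direct NLRP3 to degradation, was higher (13.95 ± 5.03 against 6.75 ± 1.07 TPM, 0.91, limma adjusted p = 0.195). March7, another ubiquitin ligase, was lower (87.9 ± 7.94 against 114.3 ± 10.4 TPM, -0.37, limma adjusted p = 0.213). The groups did not overlap for any of these 3, nor for Panx1 (52.2 ± 9.40 against 66.5 ± 1.85 TPM, -0.36, limma adjusted p = 0.273). In this list 1 gene lay higher and 3 lower without overlap, beside 10.6% and 10.4% of all genes. At an unadjusted p below 0.05, 1 was higher and 3 were lower, beside 7.80% and 7.86%.

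Of 16 tested genes of pyroptosis and other caspases, 13 lay above 0 (median 0.17). At an unadjusted p below 0.05, 4 were higher and 0 lower. The gasdermins Gsdmc2 (113.8 ± 60.4 against 38.5 ± 10.9 TPM, 1.39) and Gsdmc4 (230.3 ± 131.3 against 74.5 ± 28.2 TPM, 1.46) had the largest differences, unlike Gsdmd. Both are known from intestinal epithelium, are close paralogues whose reads could be split between them, and overlapped between groups (limma adjusted p = 0.230 and 0.241). The epithelial markers were also higher in the libraries labelled KO, and their part in these differences was not tested. Serpinb9, an inhibitor of granzyme B, was at 54.4 ± 9.87 against 34.8 ± 9.14 TPM (0.64, limma adjusted p = 0.226).

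The other IL-1 family ligands were nearly silent. Of 6 in the table, 4 had no reads in any library, and only Il33, the epithelial and stromal alarmin, was tested (2.64 ± 0.416 against 2.27 ± 0.872 TPM, 0.19, limma adjusted p = 0.771).

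Of 9 tested receptors and decoys of the family, 6 lay above 0 and 3 below (median 0.16). Il1r1, the signalling receptor for IL-1α and IL-1β, was lower in every library labelled KO (20.7 ± 0.306 against 32.0 ± 3.46 TPM, -0.60, limma adjusted p = 0.130). The decoy receptor Il1r2 was far more abundant, at 258.6 to 304.7 TPM in the libraries labelled KO and 221.4 to 296.4 TPM in those labelled WT. Il1rl1, the receptor of IL-33, was higher (279.6 ± 129.3 against 152.1 ± 21.7 TPM, 0.79, limma adjusted p = 0.252), with KO 1 well above the rest. Il18rap, the second chain of the IL-18 receptor, was at 55.4 ± 11.2 against 41.4 ± 10.5 TPM (0.42, limma adjusted p = 0.366). Receptor and ligand of IL-1 therefore lay on opposite sides of 0, Il1r1 at -0.60 and Il1a at 0.98, neither past the adjusted threshold.

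Of 21 tested genes of MyD88 signalling, the path behind these receptors, 7 lay above 0 and 14 below (median -0.02). At an unadjusted p below 0.05, 0 were higher and 3 lower. The kinase Irak2 was at 46.7 ± 8.66 against 66.7 ± 3.22 TPM (-0.52, limma adjusted p = 0.195), and Irak3, a brake on the pathway, at 14.4 ± 4.49 against 24.3 ± 5.19 TPM (-0.74, limma adjusted p = 0.250). For both the groups did not overlap. The ubiquitin ligase Peli1 was at 116.3 ± 17.5 against 182.1 ± 45.5 TPM (-0.62, limma adjusted p = 0.226), with overlap. Of 6 other genes reported as REV-ERB targets in macrophages or listed with them, 4 lay above 0 and 2 below (median 0.22), and 0 had an unadjusted p below 0.05. The lowest p were those of the lipopolysaccharide receptor Tlr4 (3.23 ± 1.08 against 1.82 ± 0.555 TPM), the chemokine Cxcl2 (84.6 ± 14.1 against 73.5 ± 22.4 TPM) and Il6 (5.61 ± 2.62 against 4.11 ± 0.995 TPM). Of the clock genes, Arntl (BMAL1), whose promoter REV-ERB occupies, was measured at 33.2 ± 3.14 against 38.1 ± 1.74 TPM.

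**Figure D4:**
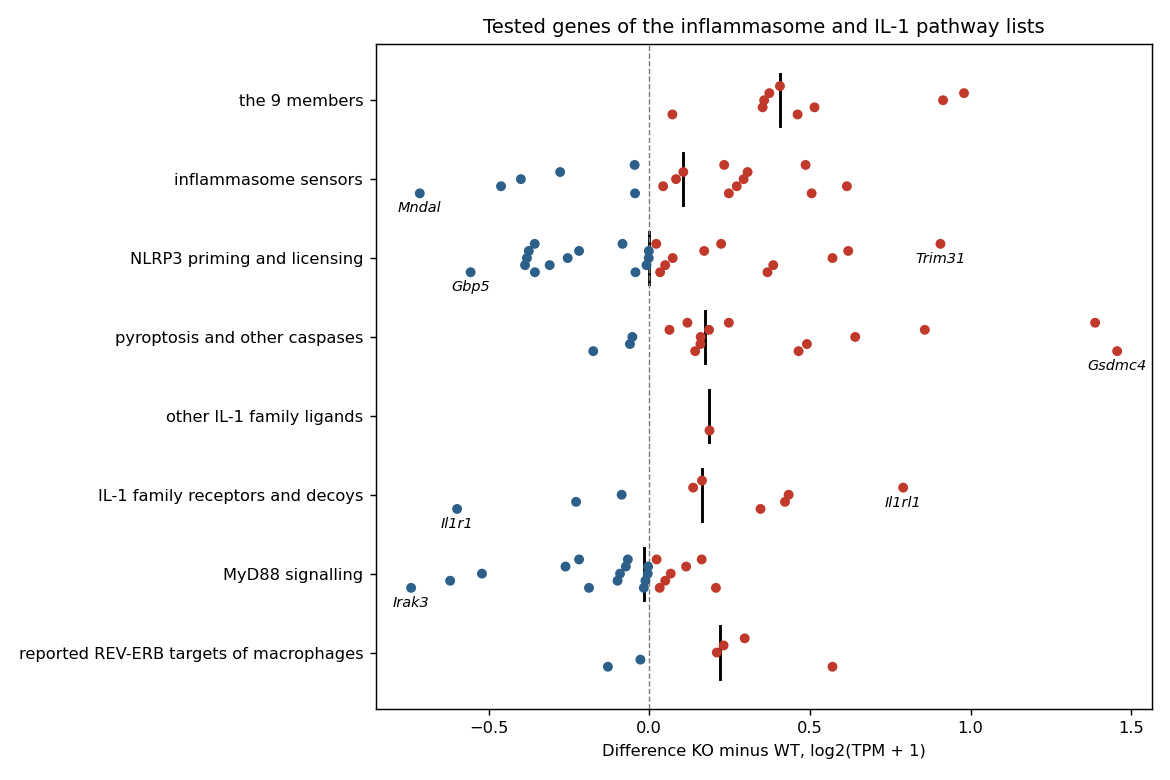
Difference between libraries labelled KO and WT on the log2(TPM + 1) scale (horizontal axis) of every tested gene, for the 9 members and each pathway list; red is above 0, blue below, and black bars are medians. The members have a median of 0.41, and the lists have medians from -0.02 to 0.22.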

How the data were processed

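The authors deposited values in TPM, 1 row per RefSeq transcript with its mm10 coordinates, per the file headers. HOMER 4.9.1, STAR 2.5.3a, Trim Galore 0.4.4 and FastQC 0.11.8 appear, without order or settings, per the submitters' processing notes. TPM multiplied by transcript length gave whole multiples of 1 step in each library (99.99% of values up to 500 reads within 0.1 of a whole number), which gives the read count behind each value. Genes reaching 1 TPM in 3 or more of the 6 libraries entered a limma 3.58.1 fit in R 4.3.3, two-sided, with trended variance, on log2(TPM + 1), genotype as the only term, and Benjamini-Hochberg adjustment over all genes. Fold changes on this scale understate the change of low genes. Exact permutation tests were two-sided (scipy 1.17.1). P-values reflect only how far these libraries differ among themselves, which may be technical. The rows analysed sum to 634200 to 644662 TPM per library. The test was also run on simulated counts, with the same spread for every gene and no outlying library. That run does not show how the test behaves with a library such as KO 2.

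Symbols were read from the annotation column. The members and gene lists were chosen with earlier results of these data known. Named genes are all 9 members, the up to 3 genes with the lowest p in each pathway list, markers by level or list order, and the 3 genes most like Nlrp3, Il1b and Il18. One gene among those most like Il1b is not reported here. Others (Il1r2, Arntl, Nr1d1, Nr1d2, Naip1, Naip2, Naip5, Panx1, Il1bos, Gm14023) were chosen after their values were seen. Alternatives were other pseudocounts, filters, scalings and weights, marker covariates, a replicate block, and leaving out each library.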

Additional observations from a re-analysis of the deposited data

How the results depend on the processing

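No member passed the adjusted threshold under any of the 17 alternatives run. The lowest adjusted p of a member was 0.0551, for Il1a with array weights, and the higher filter of 5 TPM left Il1a untested. Il1a ran from 0.50 (pseudocount 5) to 1.33 (voom on the recovered reads), Il18 from 0.53 to 1.18, and Gsdmd from 0.05 to 0.12 on the log2 scale. With the epithelial score as a covariate, the differences of Nlrp3 (-0.68), Il1b (-0.55), Il1rn (-0.45), Casp1 (-0.25), Casp4 (-0.44) and Pycard (-0.0082) and the median of the members (-0.25) turned below 0, as did Tlr4 (-0.15), Cxcl2 (-0.48) and Il6 (-0.39). The score differed between the groups without overlap, and its part cannot be told apart from that of the label. Over fits that left out 1 library each, Il33 ran from -0.041 (without WT 1) to 0.36, and Cxcl2 from -0.0015 (without WT 2) to 0.44.

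Array weights raised the genes past the threshold from 0 to 582 (225 higher, 357 lower) and the pathway genes from 0 to 8 (Gbp5, Gsdmc2, Il1r1, Mndal, Ninj1, Nlrc5, Peli1 and Serpinb9). The cause was not tested. Leaving out 1 library gave 0 to 7 genes past the threshold, 7 without WT 1 and 1 without WT 2, and 0 members. With the replicate number as a block, 0 genes passed. In this balanced design a block cannot change the differences, only their SE. The SE was 0.242 for Il1a, 0.222 for Il18 and 0.190 for Casp4, against 0.262, 0.271 and 0.305 without the block. For Pycard it rose to 0.202 from 0.176. Over all genes, same-numbered libraries did not deviate together (correlations 0.004, -0.22 and -0.04), and the numbers were not treated as pairs. These correlations cannot decide whether the numbers mark pairs, because they pool all genes and rest on few libraries. Il1a, with 22 to 117 reads per library, is the member most limited by depth.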
